A study of Homo sapiens with 28 samples.

Results

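The genes described here are HOXA3, HOXA5, HOXA6, HOXA7, HOXA9, HOXA10, MEIS1, PBX3 and MEF2C, 9 of the 22391 genes in the expression table, together with the 64 of 100814 splice junction measurements that carry their symbols. They were chosen by name, as genes known to be switched on by MLL fusion proteins, and expression was read by Ensembl gene identifier. MLL fusions are chimeric transcription regulators that keep the posterior HOXA genes and MEIS1 active in acute leukemia. HOXA proteins bind DNA together with cofactors of the TALE homeobox class, among them MEIS1 and PBX3, and this partnership maintains self-renewal of leukemic myeloid progenitors. MEF2C, a MADS-box transcription factor, belongs to the same fusion-driven program and acts in myeloid and lymphoid development.

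RNA was sequenced from 2 human acute myeloid leukemia cell lines, MOLM13 with an MLL-AF9 fusion and MV4;11 with an MLL-AF4 fusion, in 28 libraries that form 9 groups. Every culture was transduced with a lentiviral short hairpin vector and selected with puromycin. The hairpin was sh64 or sh65, both against the splicing regulator MBNL1, or the non-targeting control shNT. In MOLM13 the groups were sh64 at day 4 (n = 3) with its shNT control (n = 3), sh64 at day 12 (n = 3) with its own shNT control (n = 3), and sh65 (n = 4) with a second shNT set (n = 3, libraries a, b and c here because their columns carry no replicate number). In MV4;11 the groups were sh64 (n = 3), sh65 (n = 3) and 1 shNT group (n = 3) that served as control for both hairpins. When the sh65 and MV4;11 cultures were harvested is unknown here, and the day 12 libraries alone were sequenced on a NovaSeq 6000 rather than a HiSeq 2500. The study's methods call the day 12 libraries biological replicates. For the other groups no source says that libraries came from separate cultures, so their p-values measure the spread between these libraries, which may be technical. Each line is a single established line, which limits how far a value stands for the leukemia type.

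The targeted gene was lower in every knockdown group, to 14.4% and 16.7% of control with sh64 in MOLM13 at days 4 and 12, to 16.6% with sh64 in MV4;11, and less far with sh65, to 67.3% in MOLM13 and 53.3% in MV4;11. All 8 myeloid markers checked had a median above 1 RPKM (reads scaled to gene length and library size), against 1 of 8 markers of other blood cells, the T-cell gene CD3D, and 1 of 4 markers of other tissues. After group means were removed, a first axis with 46.4% of the remaining variance set replicate 3 of both day 4 groups apart from replicates 1 and 2, and a second axis with 19.5% set sh65 replicates 1 and 2, library a of the second shNT set and MV4;11 shNT replicate 3 apart from the rest of their groups. Relative sequencing depth ran between 27.97% and 100% of the deepest library, and replicate 3 of the day 4 groups was the shallowest at 27.97% (sh64) and 32.5% (shNT).

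Levels of the 9 genes differed widely. On the per-length RPKM scale, over 28 libraries, PBX3 had a median of 12.7 (range 9.80 to 18.2) and MEF2C 11.3 (6.92 to 22.3), followed by HOXA9 at 5.95 (2.79 to 13.6) and MEIS1 at 2.90 (2.17 to 5.60). PBX3 and MEF2C overlapped, as did MEF2C with HOXA9 and HOXA9 with MEIS1. The other 5 genes were low, with medians of 0.936 for HOXA10, 0.775 for HOXA7, 0.700 for HOXA6, 0.588 for HOXA3 and 0.358 for HOXA5 and overlapping ranges throughout. By mean level, PBX3 stood at the 84.2 percentile of all genes, MEF2C at 83.2, HOXA9 at 75.5 and MEIS1 at 66.5, while the other HOXA genes lay between 48.5 (HOXA5) and 55.7 (HOXA10).

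The read counts behind these values could be recovered exactly and show how firm each one is. MEF2C rested on 1364 to 5420 reads a library, PBX3 on 793 to 3269, MEIS1 on 343 to 1200 and HOXA9 on 164 to 1206. HOXA10 rested on 54 to 178 reads, HOXA3 on 37 to 243, HOXA7 on 7 to 146, HOXA6 on 6 to 100 and HOXA5 on 6 to 61, so single-library values of the last 3 carry large counting error. The genes of the HOXA cluster also overlap in position, with introns counted. On GRCh37, HOXA3 (chr7:27145803-27192202, minus strand) spans HOXA4, HOXA5 and HOXA6 on its own strand and antisense transcripts on the other, HOXA9 and HOXA10 overlap by 4576 bases, and MEIS1 and MEF2C have antisense partners. The study's methods call the reads stranded, but whether counting used the strand is not stated. Genes that overlap on the same strand may share reads in either case, and overlap of their exons was not checked. Values of overlapping and antisense genes are therefore uncertain.

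**Figure D1:**
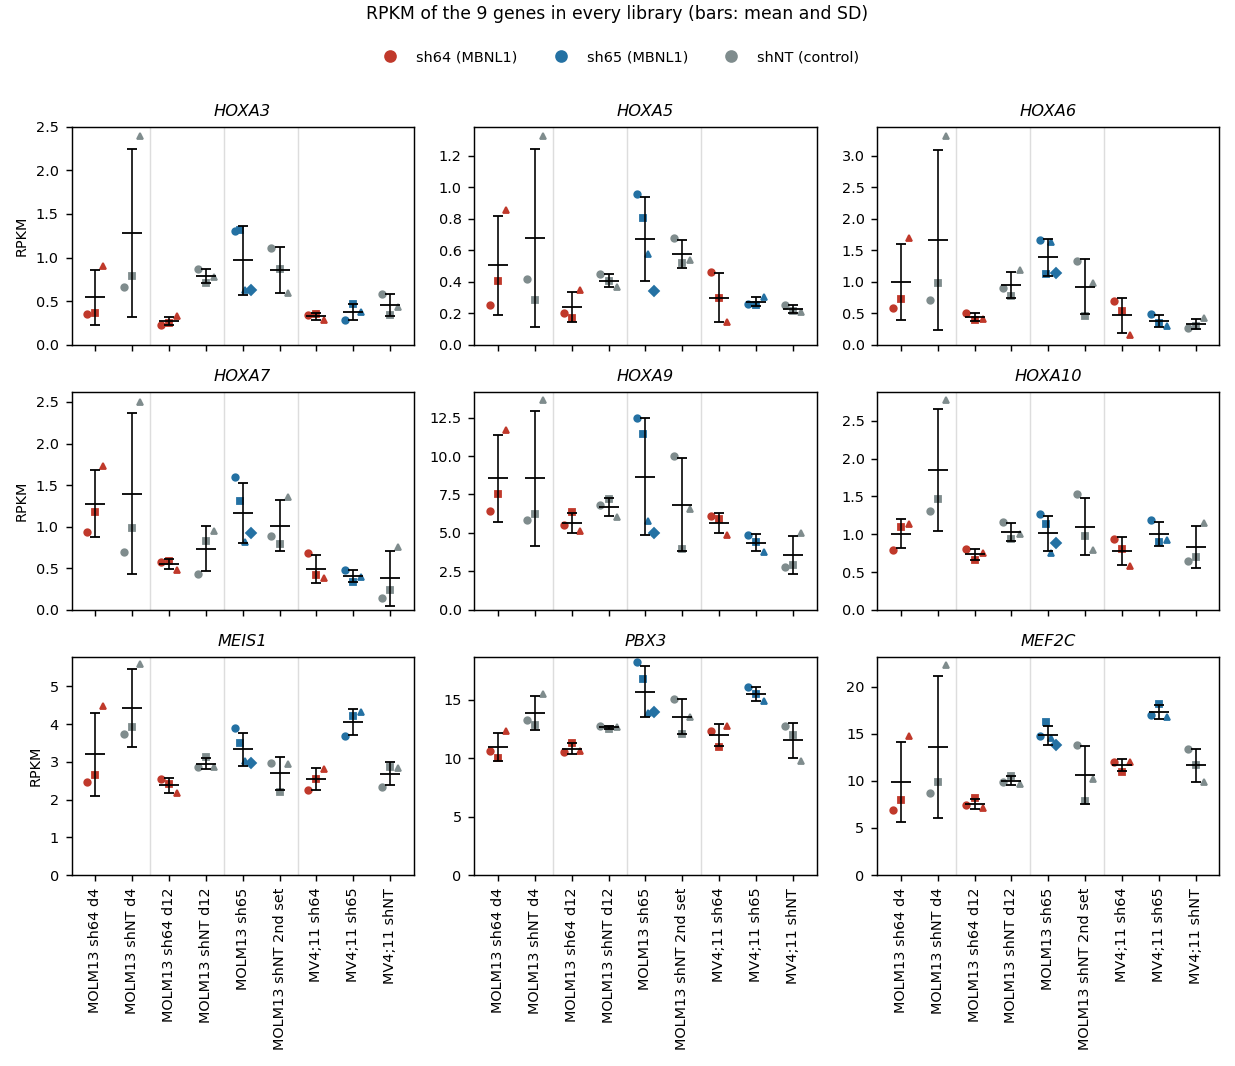
Expression of each gene in RPKM (vertical axis, one panel per gene, each with its own scale) in the 28 libraries, grouped along the horizontal axis by cell line, day and hairpin. Points are libraries and bars show mean ± SD of 3 or 4 libraries. Replicate 3 of the day 4 groups is the highest point for MEF2C in both groups, at 14.7 with sh64 and 22.3 with shNT.

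In MOLM13 at day 4, all 9 genes had a lower mean with sh64 than with shNT, between 42.1% (HOXA3) and 99.8% (HOXA9) of control. PBX3, the PBX-family TALE cofactor that stabilises HOX proteins on DNA, measured 10.6, 9.99 and 12.3 RPKM in sh64 replicates 1, 2 and 3, against 13.2, 12.9 and 15.5 RPKM in shNT. HOXA10, an abdominal-B type HOX gene active in myeloid progenitors, measured 0.789, 1.096 and 1.14 RPKM with sh64, against 1.31, 1.47 and 2.77 RPKM with shNT. These were the only 2 of the 9 genes whose groups did not overlap at this day, and 8.24% of all genes tested were separated in that direction.

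HOXA9, the central HOX gene of MLL-rearranged leukemia, measured 6.40, 7.51 and 11.7 RPKM with sh64, against 5.86, 6.21 and 13.6 RPKM with shNT, and the groups overlapped fully. MEIS1, the cofactor that acts with HOXA9, measured 2.48, 2.66 and 4.47 RPKM with sh64, against 3.74, 3.92 and 5.60 RPKM with shNT. MEF2C measured 6.92, 7.93 and 14.7 RPKM with sh64, against 8.69, 9.90 and 22.3 RPKM with shNT. Within each group replicate 3 was the highest library for all 3 genes, and the groups overlapped through it. Taken by replicate number, sh64 was at 79.6%, 80.1% and 66.1% of shNT for MEF2C, at 66.2%, 67.9% and 79.9% for MEIS1, and at 80.1%, 77.6% and 79.3% for PBX3. HOXA9 had no common direction, at 109.3%, 120.9% and 86.0%.

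Genes were tested with limma on log2(RPKM + 1) and called where the unadjusted p was at most 0.01 and the change at least 1.5-fold, on a scale where changes of low genes are understated. At day 4, 0 of the 8 genes that passed the level filter were called, and 0 had an unadjusted p under 0.05, where 2.42% of all 10289 genes were called. The log2 fold change was −0.31 ± 0.14 (SE) for PBX3 (adjusted p = 0.53), −0.38 ± 0.23 for MEIS1 (adjusted p = 0.653), −0.38 ± 0.42 for MEF2C (adjusted p = 0.805), −0.47 ± 0.22 for HOXA10 (adjusted p = 0.548) and 0.05 ± 0.36 for HOXA9. The adjusted p is by Benjamini-Hochberg over all tested genes. Same-numbered libraries of this day deviated together, and with the replicate number as a block the same fold changes had smaller errors. The block gave adjusted p = 0.0216 for MEIS1, 0.0248 for PBX3, 0.0303 for MEF2C, 0.0349 for HOXA3 and 0.0458 for HOXA10, where 14.1% of all genes were lower at an adjusted p under 0.05. With the block HOXA3 fell by 0.51 on the log2 scale (unadjusted p = 0.00798) short of the 1.5-fold limit, and 0 of 8 genes were called against 7.09% of all genes. Without the level filter, a setting added after the data were seen, the blocked fit kept PBX3 alone under 0.05 (adjusted p = 0.0492), with 0.118 for MEIS1, 0.189 for MEF2C, 0.259 for HOXA3 and 0.299 for HOXA10. In bulk RNA such as this, fewer cells of a type and less RNA per cell cannot be told apart.

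At day 12, 7 of the 9 genes were lower with sh64 than with shNT without overlap between groups, where 13.6% of all 22391 genes in the table were separated in that direction. MEF2C, PBX3, MEIS1 and HOXA10 were 4 of these 7 and belong to the 5 genes that passed the level filter given below, where the share was 23.7% of the genes that passed. MEF2C measured 7.42, 8.17 and 7.14 RPKM with sh64, against 9.86, 10.5 and 9.63 RPKM with shNT. PBX3 measured 10.5, 11.3 and 10.7 RPKM with sh64, against 12.8, 12.5 and 12.7 RPKM with shNT. MEIS1 measured 2.55, 2.42 and 2.17 RPKM with sh64, against 2.86, 3.12 and 2.87 RPKM with shNT. In each of the 3 genes the highest sh64 library lay below the lowest shNT library. The means were 7.58 ± 0.53 against 10.0 ± 0.46 RPKM for MEF2C (75.8% of control), 10.8 ± 0.43 against 12.6 ± 0.15 RPKM for PBX3 (85.7%) and 2.38 ± 0.19 against 2.95 ± 0.15 RPKM for MEIS1 (80.7%), each ± SD with n = 3 libraries a group.

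The HOXA genes varied in size of difference at day 12. HOXA3, the anterior member of the cluster known from pharyngeal development, measured 0.230, 0.253 and 0.324 RPKM with sh64, against 0.868, 0.708 and 0.780 RPKM with shNT. These values came from 48 to 60 reads a library with sh64 and 136 to 152 with shNT, and the mean with sh64 was 34.2% of control, the lowest of the 9 genes. HOXA6, a mid-cluster gene, measured 0.507, 0.384 and 0.412 RPKM with sh64, against 0.899, 0.766 and 1.18 RPKM with shNT (45.8% of control). HOXA5, another mid-cluster gene that promotes myeloid over erythroid fate, stood at 59.0% of control without overlap on 13 to 26 reads a library. HOXA10 measured 0.803, 0.660 and 0.750 RPKM with sh64, against 1.16, 0.933 and 1.00 RPKM with shNT (71.6%). HOXA9, at 5.51, 6.39 and 5.13 RPKM with sh64 against 6.80, 7.23 and 6.02 RPKM with shNT, overlapped between groups, as did HOXA7.

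At day 12, 0 of the 5 genes that passed the level filter were called, where 5.52% of 10094 genes were. All 5 had an unadjusted p under 0.05, as did 56.7% of all genes tested. The differences of 4 genes passed an adjusted p of 0.05 below 1.5-fold, as did 19.3% of all genes in the lower direction. The log2 fold change was −0.36 ± 0.06 (SE) for MEF2C (adjusted p = 0.00141), −0.23 ± 0.05 for MEIS1 (adjusted p = 0.00984), −0.22 ± 0.06 for HOXA10 (adjusted p = 0.0111), −0.21 ± 0.04 for PBX3 (adjusted p = 0.00514) and −0.20 ± 0.08 for HOXA9 (adjusted p = 0.0704). HOXA3, HOXA5, HOXA6 and HOXA7 were below the filter of a mean of 1 RPKM in either group. Without the filter HOXA3 had a log2 fold change of −0.49 (adjusted p = 0.00609) and HOXA6 of −0.44 (adjusted p = 0.0421), with 7.28% of all genes lower at that threshold. In the same fit MEIS1 (adjusted p = 0.0582) and HOXA10 (adjusted p = 0.0645) no longer passed, while MEF2C (0.0225) and PBX3 (0.017) did. Over the alternative settings described below, the highest adjusted p was 0.53 for MEF2C, 0.506 for MEIS1, 0.41 for PBX3 and 0.552 for HOXA10. None of these 4 genes thus passed in every setting. With a pseudocount of 0.1 and no filter, an alternative added after the data were seen, HOXA3 (log2 fold change −1.27) and HOXA6 (−0.96) were called, and 2.01% of all genes were called lower.

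**Figure D2:**
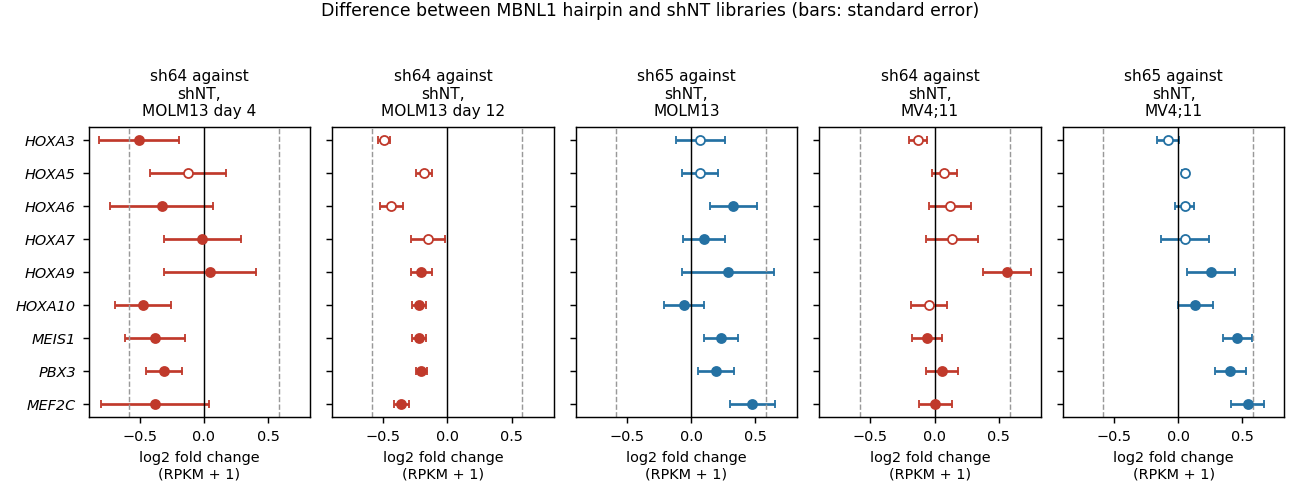
Log2 fold change of log2(RPKM + 1) for each gene (horizontal axis, hairpin against shNT) in the 5 knockdown comparisons, one panel each, with bars of 1 SE and dashed lines at 1.5-fold. Filled points passed the level filter and open points come from the fit without it. At day 12 all 9 points lie below 0, and with sh65 in MV4;11 MEIS1, PBX3 and MEF2C lie above 0.

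The difference between the 2 days in the sh64 effect was tested as an interaction. It called 0 of 8 genes, where 0.397% of all genes were called, and 0 had an unadjusted p under 0.05, with day and sequencing platform not to be told apart.

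With sh65 in MOLM13, 8 of the 9 genes had a higher mean than in the second shNT set. MEF2C measured 14.8, 16.2, 14.6 and 13.8 RPKM with sh65, against 13.8, 7.81 and 10.2 RPKM with shNT, a mean of 140% of control. MEIS1 measured 3.89, 3.496, 3.01 and 2.96 RPKM with sh65, against 2.96, 2.19 and 2.94 RPKM with shNT (124%), the only 1 of the 9 genes without overlap, by less than 0.01 RPKM, where 11.7% of all genes were separated in that direction. HOXA9 measured 12.4, 11.4, 5.75 and 5.02 RPKM with sh65, against 10.0, 3.96 and 6.59 RPKM with shNT, so that the libraries set apart on the second axis (sh65 replicates 1 and 2 and shNT library a) were the high ones in both groups. PBX3 measured 18.2, 16.8, 13.9 and 13.9 RPKM with sh65, against 15.04, 12.06 and 13.55 RPKM with shNT. Of 7 genes tested 0 were called, where 3.24% of all genes were, and MEF2C alone had an unadjusted p under 0.05 (log2 fold change 0.48 ± 0.18 SE, adjusted p = 0.222). Without shNT library a, MEF2C was called (log2 fold change 0.67, adjusted p = 0.0361). Against the first shNT set the log2 fold change was −0.31 for MEIS1, −0.16 for HOXA3, −0.089 for HOXA7 and −0.041 for HOXA6, so the direction of these 4 genes depends on which control set is used.

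In MV4;11 with sh64 the cofactors and MEF2C were close to control. MEIS1 measured 2.25, 2.55 and 2.82 RPKM with sh64, against 2.34, 2.86 and 2.85 RPKM with shNT. PBX3 measured 12.3, 10.9 and 12.8 RPKM with sh64, against 12.7, 12.0 and 9.80 RPKM with shNT, and MEF2C 12.0, 10.9 and 12.0 RPKM with sh64, against 13.4, 11.7 and 9.88 RPKM with shNT. The means of the 3 genes were 94.7%, 104% and 99.8% of control with fully overlapping groups. HOXA9 measured 6.13, 5.88 and 4.88 RPKM with sh64, against 2.79, 2.92 and 5.01 RPKM with shNT, a mean of 158% of control. The shNT replicate 3, set apart on the second axis, lay within the sh64 range for HOXA9. Of the 4 genes tested 0 were called, where 6.51% of all genes were, and HOXA9 alone had an unadjusted p under 0.05 (log2 fold change 0.56 ± 0.19 SE, adjusted p = 0.0863). Without shNT replicate 3, HOXA9 was called (log2 fold change 0.78, adjusted p = 0.000511). The difference between lines in the sh64 effect was not called for any of 8 genes, against 0.653% of all genes, and 0 had an unadjusted p under 0.05, with PBX3 nearest to it (0.37 ± 0.19 higher on the log2 scale in MV4;11 than in MOLM13 at day 4, unadjusted p = 0.0762).

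With sh65 in MV4;11 the cofactors and MEF2C had higher means than with shNT. MEIS1 measured 3.67, 4.21 and 4.31 RPKM with sh65, against 2.34, 2.86 and 2.85 RPKM with shNT. PBX3 measured 16.1, 15.5 and 14.9 RPKM with sh65, against 12.7, 12.0 and 9.80 RPKM with shNT, and MEF2C 17.0, 18.2 and 16.8 RPKM with sh65, against 13.4, 11.7 and 9.88 RPKM with shNT. Every sh65 library lay above every shNT library in these 3 genes, where 16.2% of all genes were separated in that direction. The means were 152%, 135% and 148% of control. Of 5 genes tested 0 were called, where 3.63% of all genes were, and the 3 genes had an unadjusted p under 0.05 with log2 fold changes of 0.46 ± 0.11 (SE) for MEIS1 (adjusted p = 0.0814), 0.40 ± 0.12 for PBX3 (adjusted p = 0.127) and 0.54 ± 0.13 for MEF2C (adjusted p = 0.0782). Without shNT replicate 1, MEF2C was called (log2 fold change 0.64). CD3D, the T-cell marker, averaged 10.0 RPKM with sh65 and 6.84 RPKM with sh64, against 2.89 RPKM with shNT in MV4;11, and its part in these values was not tested.

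Set directly against each other in MV4;11, the 2 hairpins differed in the same 3 genes. The means were 2.54 RPKM with sh64 and 4.07 RPKM with sh65 for MEIS1, 12.0 and 15.5 RPKM for PBX3, and 11.6 and 17.3 RPKM for MEF2C. The sh64 and sh65 libraries did not overlap in any of the 3, where 24.3% of all genes were separated in that direction. The log2 fold change of sh64 over sh65 was −0.52 ± 0.08 (SE) for MEIS1 (adjusted p = 0.0038), −0.35 ± 0.08 for PBX3 (adjusted p = 0.0128) and −0.54 ± 0.07 for MEF2C (adjusted p = 0.00137), where 14.6% of all genes were lower at an adjusted p under 0.05. All 3 stayed below 1.5-fold on this scale, so that 0 of 5 genes were called, against 3.38% of all genes. Over the alternative settings the highest adjusted p was 0.0716 for MEIS1, 0.21 for PBX3 and 0.321 for MEF2C. MBNL1 itself was at 31.1% of the sh65 level in sh64 cells.

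Between the control cultures, the HOXA genes had lower means in MV4;11 than in MOLM13. HOXA9 measured 2.79, 2.92 and 5.01 RPKM in MV4;11 shNT, against 10.0, 3.96 and 6.59 RPKM in the second MOLM13 shNT set. HOXA7, a mid-cluster gene, measured 0.143, 0.236 and 0.755 RPKM in MV4;11, against 0.883, 0.794 and 1.36 RPKM in MOLM13, without overlap. HOXA5, HOXA6 and HOXA3 were without overlap too, at 39.2%, 35.6% and 52.9% of the MOLM13 mean, on levels below the filter. In that direction 10.3% of all 22391 genes were separated, and 17.7% of those that passed the filter. MEIS1 (99.5%), PBX3 (85.0%) and MEF2C (110%) overlapped between lines. Of 6 genes tested 0 were called, where 14.2% of all genes were, and HOXA9 (log2 fold change −0.74 ± 0.29 SE, adjusted p = 0.124) and HOXA7 (−0.56 ± 0.21, adjusted p = 0.108) had an unadjusted p under 0.05. Against the day 12 MOLM13 controls HOXA9 was called (log2 fold change −0.78, adjusted p = 0.011), as it was against all 9 MOLM13 shNT libraries (−0.84, adjusted p = 0.0239). Without MV4;11 shNT replicate 3 HOXA7 was called (−0.75), and without library b of the MOLM13 set HOXA6 (−0.70) and HOXA9 (−1.03) were.

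The sh64 effect was also fitted over all 3 experiments at once, with the experiment as a term, a fit added after the data were seen. HOXA3 had a log2 fold change of −0.38 ± 0.12 (SE, adjusted p = 0.0278, up to 0.0658 over 22 alternatives), where 10.7% of all genes were lower at an adjusted p under 0.05. HOXA10 (−0.25, adjusted p = 0.061), MEIS1 (−0.22, adjusted p = 0.0854), PBX3 (−0.15, adjusted p = 0.0814) and MEF2C (−0.25, adjusted p = 0.269) did not pass. Of 8 genes 0 were called, against 3.87% of all genes, and 4 had an unadjusted p under 0.05.

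Splice junction usage is given as PSI, the percent of local junction reads that use a junction. MEIS1 had 17 such measurements, HOXA3 15, MEF2C 11, HOXA7 10, PBX3 8, HOXA10 2 and HOXA9 1, and HOXA5 and HOXA6 had none. The number of junction reads behind a PSI value is unknown, and values of competing junctions are linked. An event was called where the unadjusted p was at most 0.01 and the difference exceeded 10 points.

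The clearest pattern lay in PBX3. Its exon 3 of 9 on GRCh37 (chr9:128677965-128678206, plus strand) is 242 bases long and coding throughout, a length that leaves 2 bases over after division by 3. It is shown with the following 100 bases of the intron (chr9:128678207-128678306), because MBNL proteins bind RNA at YGCY motifs, which is TGCT or TGCC, and likewise CGCT or CGCC, searched on the transcript strand alone and put in capitals.
PBX3 exon 3: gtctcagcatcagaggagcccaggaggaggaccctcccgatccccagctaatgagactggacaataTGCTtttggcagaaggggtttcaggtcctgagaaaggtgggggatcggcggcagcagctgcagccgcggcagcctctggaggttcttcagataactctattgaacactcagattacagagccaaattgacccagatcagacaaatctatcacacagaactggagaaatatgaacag
PBX3 downstream of exon 3: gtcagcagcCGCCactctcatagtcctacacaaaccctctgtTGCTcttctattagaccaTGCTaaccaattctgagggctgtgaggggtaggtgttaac
The exon holds 1 such motif, as at least 1 is found in 95.6% of 6961 internal coding-gene exons of similar length (within 10%, median 4 motifs). The downstream stretch holds 3, and 14.4% of 157074 stretches of this kind hold as many or more. The 100 bases upstream of the exon hold 1, as at least 1 is found in 68.4% of upstream stretches. Joining exon 2 to exon 4, with exon 3 left out, occurs in 2 annotated transcripts, both of the nonsense-mediated decay class. In the joined sequence (15 bases from chr9:128510888-128510902 and 15 from chr9:128691934-128691948) the stop codon of those transcripts, in capitals, lies 5 bases into exon 4.
PBX3 exon 2 joined to exon 4: tcaaagagaaaacaggcatgTAAtgaattt

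Usage of the PBX3 exon 2 to exon 4 junction was higher in sh64 cells of both lines. In MOLM13 at day 4 it was 18.8%, 15.5% and 20.8% with sh64, against 9.13%, 10.0% and 11.7% with shNT. At day 12 it was 16.1%, 16.6% and 16.5% with sh64, against 11.8%, 11.4% and 11.4% with shNT, and in MV4;11 it was 15.9%, 15.6% and 14.5% with sh64, against 6.35%, 11.9% and 6.90% with shNT. The groups did not overlap in any of these 3 comparisons, where 12.3%, 14.5% and 11.5% of all events were separated in either direction. With sh65 it was 11.4%, 10.8%, 7.66% and 9% in MOLM13, against 13.6%, 10.2% and 8.14% in the second shNT set, and 10.3%, 7.38% and 7.71% in MV4;11. Over the whole series, the 9 sh64 libraries lay between 14.5% and 20.8% and the 19 others between 6.35% and 13.6%. Of 56204 events measured in every library, 0.47% had the 9 sh64 libraries wholly above or wholly below the 19 others. This junction was chosen after its values were seen, so the share is a description and not a test.

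The difference in exon 2 to exon 4 usage was 8.08 ± 1.62 points (SE) at day 4 (unadjusted p = 0.00582, adjusted p = 0.288), 4.88 ± 0.22 points at day 12 (adjusted p = 0.00456) and 6.94 points in MV4;11 (unadjusted p = 0.0134, adjusted p = 0.40). Over the 3 experiments it was 6.63 ± 0.82 points (adjusted p = 0.000311). None of these exceeded 10 points, so the event was not called. With sh65 the difference was −0.93 points in MOLM13 and 0.09 points in MV4;11, and between sh64 and sh65 in MV4;11 it was 6.85 points (unadjusted p = 0.00152, adjusted p = 0.221).

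The competing PBX3 junction, exon 3 to exon 4, is part of the main protein-coding transcript. Its usage at day 4 was 64.0%, 61.5% and 52.6% with sh64, against 81.8%, 74.6% and 73.0% with shNT, without overlap. At day 12 it was 68.1%, 71.3% and 70.9% with sh64, against 71.9%, 78.1% and 78.2% with shNT, again without overlap. In MV4;11 it was 67.1%, 69.3% and 70.8% with sh64, and 79.1%, 84.3% and 84.1% with sh65, against 89.3%, 75.6% and 83.6% with shNT. All sh64 libraries of MV4;11 thus lay below both other groups, while sh65 and shNT overlapped. The difference was −17.1 points at day 4 (unadjusted p = 0.012, adjusted p = 0.388, and called with the replicate block, unadjusted p = 0.0067), −5.95 points at day 12 (unadjusted p = 0.0476) and −13.8 points in MV4;11 (unadjusted p = 0.0208, adjusted p = 0.474, and called without shNT replicate 2, at −17.4 points). Between sh64 and sh65 in MV4;11 it was called at −13.5 points (unadjusted p = 0.0015, adjusted p = 0.22), and over the 3 experiments at −12.3 ± 2.1 points (SE, adjusted p = 0.00444). The other inclusion junction, PBX3 exon 2 to exon 3, did not follow throughout. At day 12 it was 55.59%, 55.56% and 58.06% with sh64, against 60.79%, 64.71% and 61.85% with shNT, without overlap. At day 4 it was 57.01%, 66% and 52.5% against 61.32%, 66.49% and 60.82%, with overlap. In MV4;11 it was 60.34%, 59.66% and 67.19% against 58.47%, 60.55% and 61.4%, also with overlap.

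**Figure D3:**
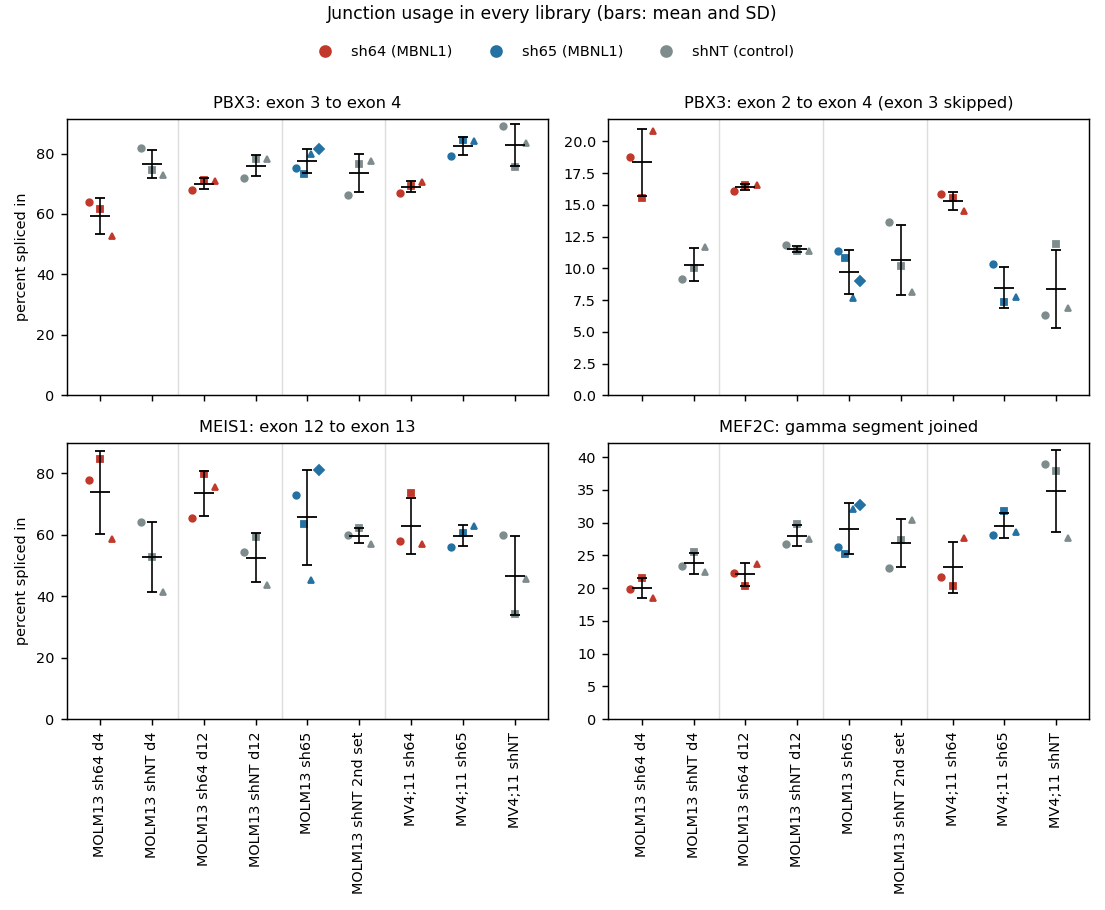
Junction usage in percent (vertical axis) in the 28 libraries, grouped by cell line, day and hairpin, for PBX3 exon 3 to exon 4, PBX3 exon 2 to exon 4, MEIS1 exon 12 to exon 13 and the MEF2C gamma junction. Points are libraries and bars show mean ± SD. The 9 sh64 libraries lie between 14.5% and 20.8% for PBX3 exon 2 to exon 4, above all 19 others.

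MEIS1 differed at its end. Exon 12 of 13 on GRCh37 carries 56 coding bases (chr2:66796182-66796237, plus strand) before its stop codon, shown because its inclusion sets which C-terminal end of MEIS1 is encoded.
MEIS1 exon 12 coding part: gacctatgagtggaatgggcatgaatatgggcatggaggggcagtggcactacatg
No YGCY motif lies in this stretch, and 45.8% of 6527 whole internal exons of similar length hold at least 1. The stretch is part of a 96-base exon whose other bases were not searched, so a part is set against wholes. The 100 bases upstream of exon 12 hold 1 motif, as at least 1 is found in 68.4% of 157074 upstream stretches. Usage of the exon 12 to exon 13 junction at day 4 was 78.0%, 84.8% and 58.6% with sh64, against 64.2%, 52.9% and 41.4% with shNT, with overlap. At day 12 it was 65.3%, 79.7% and 75.4% with sh64, against 54.4%, 59.4% and 43.8% with shNT, without overlap. In MV4;11 it was 57.9%, 73.5% and 57.1% with sh64, against 60.0%, 34.3% and 45.8% with shNT, with overlap. With sh65 it was 56%, 60.44% and 62.79% in MV4;11, within the range of sh64 and shNT together. In MOLM13 it was 73%, 63.53%, 45.28% and 81.16% with sh65, against 60%, 62.07% and 57.14% in the second shNT set. Of all events, 14.5% were separated in either direction at day 12. The difference was 21.0 points at day 4 (unadjusted p = 0.0903), 21.0 points at day 12 (unadjusted p = 0.0205, adjusted p = 0.321) and 16.2 points in MV4;11 (unadjusted p = 0.131), and over the 3 experiments the event was called at 19.4 ± 4.9 points (SE, adjusted p = 0.0484). That adjusted p lay between 0.0206 and 0.0958 over 21 alternatives.

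The MEIS1 junction that leaves out exon 12 differed in the other direction. It was used at 8.27%, 8.14% and 9.57% with sh64 at day 4, against 17.3%, 20.7% and 29.5% with shNT, and at 7.38%, 9.52% and 12.5% with sh64 at day 12, against 23.01%, 18.1% and 14.9% with shNT. Neither pair of groups overlapped, where 12.3% and 14.5% of all events were separated in either direction. In MV4;11 it was used at 22.64%, 13.98% and 22.64% with sh64, against 18.18%, 39.67% and 31.37% with shNT, with overlap (−9.99 points, unadjusted p = 0.197). The difference was −13.8 points at day 4 (unadjusted p = 0.0134, adjusted p = 0.411) and −8.84 points at day 12 (unadjusted p = 0.0246), and over the 3 experiments it was called at −10.9 ± 2.7 points (SE, adjusted p = 0.0434). Between hairpins in MV4;11, the junction of exon 11 to exon 12 was called, at 43.8%, 38.6% and 47.3% with sh64 against 58.2%, 55.5% and 53.9% with sh65 (−12.6 points, unadjusted p = 0.00754, adjusted p = 0.396). This call was lost with the replicate block (unadjusted p = 0.0332) and without sh64 replicate 1 or any one sh65 library. Against shNT in MV4;11 the same junction averaged 43.2% with sh64 and 47.7% with shNT (−4.47 points, unadjusted p = 0.371), the other direction from exon 12 to exon 13. In MOLM13 at day 4 it was 58.51%, 85.11% and 58.82% with sh64, against 57.3%, 51.22% and 31.82% with shNT, without overlap. At day 12 it was 62.35%, 66.3% and 62.32% with sh64, against 68.29%, 55.26% and 46.23% with shNT, with overlap.

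MEF2C has a segment of 96 bases, known as gamma, at the start of its last coding exon (chr5:88018647-88018742, minus strand), shown because 2 alternative splice acceptors include or leave it out. It encodes a region that represses transcription by MEF2C, and its 1 YGCY motif is in capitals. At least 1 is found in 69.9% of 21715 whole internal exons of similar length, whereas the segment is part of an exon.
MEF2C gamma segment: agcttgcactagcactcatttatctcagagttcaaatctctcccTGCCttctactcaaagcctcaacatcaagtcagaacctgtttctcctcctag
The junction that includes it was used at 19.9%, 21.6% and 18.6% with sh64 at day 4, against 23.4%, 25.6% and 22.42% with shNT. At day 12 usage was 22.36%, 20.3% and 23.7% with sh64, against 26.7%, 29.9% and 27.5% with shNT. In MV4;11 it was 21.8%, 20.3% and 27.6% with sh64, and 28.2%, 31.7% and 28.7% with sh65, against 39.0%, 37.9% and 27.7% with shNT. No sh64 group overlapped with its control, in MV4;11 by a margin of less than 0.1 points. Of all events, 12.3%, 14.5% and 11.5% were separated in either direction at day 4, at day 12 and in MV4;11. The difference was −3.78 points at day 4 (unadjusted p = 0.0314), −5.93 points at day 12 (unadjusted p = 0.00817, adjusted p = 0.21) and −11.6 points in MV4;11 (unadjusted p = 0.0407), where it was called without shNT replicate 3 (−15.2 points). Over the 3 experiments it was −7.12 ± 1.52 points (SE, adjusted p = 0.0191), under the 10-point limit. The competing junction, which leaves gamma out, was used at 70.89%, 69.2% and 73.09% with sh64 at day 4, against 66.17%, 67.04% and 67.03% with shNT. At day 12 it was 69.47%, 71.73% and 71.59% against 68.09%, 61.75% and 62.03%. Neither pair of groups overlapped. In MV4;11 it was 66.19%, 73.07% and 64.97% with sh64, against 56.62%, 55.28% and 67.92% with shNT, with overlap.

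Among the HOXA genes, the HOXA9 junction of its 2 main exons was used at 89.8% to 100% in all 28 libraries, and the main HOXA10 junction at 86.0% to 100%. In HOXA3, a junction that starts at chr7:27181393 belongs to no annotated HOXA3 transcript. Its start lies within HOXA5, and transcripts of overlapping genes were not searched. This junction was used at 100%, 100% and 87.5% in MV4;11 shNT, against 66.7%, 77.3% and 62.5% in the second MOLM13 shNT set, and was called (27.0 points higher, unadjusted p = 0.0075, adjusted p = 0.449). The call was lost without either of 2 libraries of each group and on the arcsine scale (unadjusted p = 0.0159). The competing junction of the main HOXA3 transcript (chr7:27179805-27191907) was measured in all 9 groups, with group means between 3.03% and 45.8%. At day 12 it was used at 40%, 66.67% and 30.77% with sh64, against 20%, 10.42% and 20.31% with shNT, without overlap (28.9 ± 10.7 points, SE, unadjusted p = 0.0477, adjusted p = 0.463). It overlapped between sh64 and shNT at day 4 and in MV4;11. HOXA7 had 10 measurements, and in its most widely ranging one 5 of 9 groups had 2 or more measured libraries. The one of its junctions measured in all 9 groups that ranged most had group means between 77.8% and 100%.

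By comparison, 0 of 50 events tested were called with sh64 at day 4 (1.73% of all events), 0 of 59 at day 12 (2.34%), 0 of 51 with sh65 in MOLM13 (1.28%), 0 of 46 with sh64 in MV4;11 (1.64%) and 0 of 46 with sh65 in MV4;11 (0.866%). At an unadjusted p under 0.05 the counts were 8 events at day 4 (7.69% of all events), 10 at day 12 (10.6%), 1 with sh65 in MOLM13 (7.76%), 12 with sh64 in MV4;11 (7.73%) and 6 with sh65 in MV4;11 (5.57%). Between hairpins in MV4;11, 2 of 46 were called (1.16%), between lines 1 of 46 (1.16%), and over the 3 sh64 experiments 3 of 43 (3.11%). The sh64 effect differed between days in 0 of 50 events (0.779% of all events called, with 2 of the 50 at an unadjusted p under 0.05, against 4.7% of all events) and between lines in 1 of 43 (0.794%), a MEF2C splice acceptor.

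Other genes of the same pathways were read from lists of names. Of all genes tested, 2.42% were called with sh64 at day 4, 5.52% at day 12 and 6.51% with sh64 in MV4;11. Of the other HOXA genes and the HOXA locus noncoding RNAs, at most 3 passed the level filter in a comparison and 0 were called, and 0 of the 11 HOXB, HOXC and HOXD genes in the table reached the filter. Among MEF2 family members and partners 1 of 9 was called at day 12, HDAC4, a repressor that binds MEF2 proteins, at 4.03 ± 0.26 RPKM with sh64 and 2.06 ± 0.06 RPKM with shNT (n = 3 each, log2 fold change 0.72, adjusted p = 2.81e-05). FLT3, a receptor tyrosine kinase and known HOXA9 and MEIS1 target, was the 1 gene called among 13 other MLL-fusion targets at day 12, at 107 ± 7.2 RPKM with sh64 and 187 ± 1.9 RPKM with shNT (log2 fold change −0.80, adjusted p = 2.68e-05), and among 12 at day 4 (104 ± 33 and 212 ± 15 RPKM, adjusted p = 0.269). PIM1, a survival kinase, was called lower at day 12 as well (10.2 and 34.8 RPKM, log2 fold change −1.69). With FLT3, which is on both lists, 2 of 10 HOXA9 and MEIS1 response genes were called lower. The median log2 fold change of these 10 was 0.094, against 0.044 over all genes. MLL-fusion cofactors were called in 0 of 22 at day 12 and in 1 of 21 with sh64 in MV4;11 (ELL, higher).

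A list of myeloid maturation genes, which also holds granule protein genes such as MPO, ELANE and AZU1, differed in MOLM13 with sh64. At day 4, 4 of 12 were called higher, ELANE and AZU1 among them, against 2.42% of all genes called. At day 12, 8 of 12 were called higher and 2 lower, against 5.52% of all genes called. LYZ, which encodes lysozyme, averaged 3771 RPKM with sh64 and 801 RPKM with shNT at day 12, and MPO, myeloperoxidase, 75.7 and 7.22 RPKM. In MV4;11 with sh64, 3 of 13 were called higher and 1 lower, against 6.51% of all genes called. CSF1R, the macrophage growth factor receptor, averaged 27.7 RPKM with sh64 and 14.8 RPKM with shNT, S100A8, a calcium-binding protein of neutrophils and monocytes, 3.38 and 1.62 RPKM, and MPO 6.12 and 2.67 RPKM. With sh65 in MV4;11, 0 of 12 were called higher and 2 lower, against 3.63% of all genes called. LYZ was called lower with both hairpins, at 1404 RPKM with sh64 and 680 RPKM with sh65, against 2313 RPKM with shNT. Whether these differences reflect maturation, and the part of maturation in the values of the 9 genes, was not tested. The median log2 fold change of the tested members was −0.36 at day 4, against −0.0014 over all genes, and −0.22 at day 12, against 0.04.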

How the data were processed

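Total RNA of 28 libraries was sequenced by the study. The authors aligned reads to hg19 with STAR and made 2 deposited tables, RPKM per gene with AltAnalyze on Ensembl models and PSI, a fraction of local junction reads per splice event, printed here as percent. Their column of PSI differences was not used. Genes were tested with limma 3.58.1 (R 4.3.3) on log2(RPKM + 1), keeping genes with a mean of at least 1 RPKM in either group. A call needed an unadjusted p of 0.01 or less and a 1.5-fold change. PSI values were tested untransformed where over 50% of both groups' libraries had one, and a call needed a difference over 10 points. The Benjamini-Hochberg adjustment ran over all tested features. The deposited RPKM values were whole multiples of 1 read for all values checked of 8074 genes (tolerance 0.02 reads), which gave the reads behind each gene and the relative depth. Fits were tested on simulated data. The members and gene lists were chosen with earlier results of these data known. The list of other TALE cofactors is not reported here. The text names all 9 members, MBNL1, at most 3 called genes a list and comparison, called events, the widest-ranging event a gene, PBX3 and MEF2C events chosen after their values were seen, and the 3 genes most correlated with each of 4 members.

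Same-numbered sh64 and shNT libraries at day 4 correlated in their deviations from group means (r = 0.858, 0.811 and 0.892), so these numbers were treated as pairs, while those at day 12 (−0.109, −0.046 and −0.045) and in MV4;11 were not. Alternatives were another pseudocount, no filter, median scaling, quantile normalization, the replicate block, other control sets, arcsine PSI and leaving out each library. Annotation was GENCODE 44 mapped to GRCh37. Sequences were read from the GRCh37 genome, exon backgrounds from its MANE Select transcripts on most but not all chromosomes, and figures were drawn with matplotlib 3.10.9.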

Additional observations from a re-analysis of the deposited data

Results flagged for a closer look

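1 result met the criteria for a closer look. In MEF2C, usage of an acceptor that lies 3 bases from that of the main protein-coding transcript differed between lines in its response to sh64, by −10.2 points (MV4;11 minus MOLM13 at day 4, limma interaction, unadjusted p = 0.00861, adjusted p = 0.797). In MV4;11 it was 38.6%, 35.2% and 38.9% with sh64, against 46.3%, 41.6% and 46.7% with shNT, and in MOLM13 at day 4 it was 50%, 47.02% and 44% with sh64, against 41.4%, 46.8% and 44.1% with shNT. The groups did not overlap in MV4;11 (−7.32 points, unadjusted p = 0.0163) and overlapped in MOLM13 (2.92 points, unadjusted p = 0.253). The acceptor of the main transcript had similar usage, at 39.57%, 42.31% and 42.47% in MV4;11 shNT and 43.97%, 38.18% and 38.92% in MOLM13 shNT at day 4. Of all events, 0.794% were called in this test, and 1 of 43 of the events described here. In the 18 checks of single libraries for values far from their group, which the group of 4 sh65 libraries allowed, 0 stood apart.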

How the results depend on the processing

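Of 1220 alternative values of 104 results, 1126 kept their direction and their side of the call threshold, in which the adjusted p has no part. The following did not, and the cause was not tested. With a pseudocount of 0.1, alone or without the filter, HOXA7 at day 4 had a log2 fold change of 0.033, 1 gene was called between hairpins in MV4;11 (MEIS1, −0.66) and 1 over the 3 experiments (HOXA3, −0.88). Without the filter as well, 2 genes were called at day 12 (HOXA3 and HOXA6) and 1 between lines (HOXA5, −1.05). For sh65 in MOLM13 the first shNT set as control gave −0.16 (HOXA3), −0.041 (HOXA6), −0.089 (HOXA7) and −0.31 (MEIS1), and both sets together gave −0.045 (HOXA3) and −0.039 (MEIS1). Quantile normalization gave −0.039 for HOXA7 with sh65 in MOLM13, −0.043 for HOXA10 with sh65 in MV4;11, −0.021 for MEF2C with sh64 in MV4;11 and 0.0064 for MEIS1 between lines, and median scaling gave −0.032 for MEF2C with sh64 in MV4;11 and 0.066 for MEIS1 between lines. Between lines, the first MOLM13 shNT set gave −0.10 for MEF2C, and the day 12 set and the 9 shNT libraries each called 1 gene (HOXA9). The arcsine scale called 1 event with sh64 at day 4 and 1 in MV4;11.

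With the replicate block 1 event was called at day 4 (PBX3 exon 3 to exon 4) and 1, against 2, between hairpins in MV4;11. At day 4 the block called 729 genes, against 249 without it, and it changed no other call of the genes described here.

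Leaving out one library at a time gave log2 fold changes of −0.23 to 0.30 for HOXA7, −0.18 to 0.40 for HOXA9 and −0.68 to 0.012 for MEF2C at day 4, −0.0086 to 0.57 for HOXA9 and −0.16 to 0.086 for HOXA10 with sh65 in MOLM13, −0.13 to 0.0035 for MEIS1, −0.043 to 0.13 for PBX3 and −0.10 to 0.10 for MEF2C with sh64 in MV4;11, and −0.10 to 0.068 for MEIS1 and −0.035 to 0.34 for MEF2C between lines. Genes called ranged over 0 to 1 with sh65 in MOLM13 and with either hairpin in MV4;11, and over 0 to 2 between lines. Events called ranged over 0 to 1 with sh64 at day 4, 0 to 2 with sh64 in MV4;11, 0 to 1 with sh65 in MV4;11, 1 to 2 between hairpins and 0 to 2 between lines. Over its 21 alternatives the adjusted p of PBX3 exon 3 to exon 4 over the 3 experiments lay between 0.00143 and 0.0123. Depth limits HOXA5, HOXA6 and HOXA7, which fell to 6 or 7 reads in single libraries.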

Other observations

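The genes whose expression followed each member most closely were listed as a description. Over 28 libraries, which share line, hairpin and batch, Pearson's r of log2(RPKM + 1) with HOXA9 was 0.92 for VASP, 0.90 for CD300C and 0.90 for SH2D3C. With MEF2C it was 0.93 for ARHGAP18, 0.91 for TLN1 and 0.90 for LATS2, with PBX3 0.85 for RINL, 0.82 for SOCS2-AS1 and 0.81 for PRKACB, and with MEIS1 0.84 for MAGED2, 0.81 for MIR155HG and 0.80 for ZER1. Over the 19 MOLM13 libraries the closest genes were SLC2A3 for HOXA9 (0.94), ARHGAP18 for MEF2C (0.96), ACSS2 for PBX3 (0.93) and NECAP2 for MEIS1 (0.91). RINL was in the first 3 for PBX3 and ARHGAP18 for MEF2C in both sets of libraries.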
